A study of Mus musculus with 3 samples.

Results

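Peaks of MTR4-bound RNA were examined at 10 genes that mark stem and progenitor spermatogonia: Gfra1, Ret, Pax7, Cdh1, Zbtb16, Id4, Etv5, Nanos2, Lin28a and Sall4. A peak was counted for a gene when its midpoint lay in the RefSeq gene body on mouse build mm10. Of 15769 peaks in the list, 11 lay in these genes, and 7 of the 10 genes held at least 1. The peaks came from LACE-seq, which fixes RNA to its bound proteins with ultraviolet light, pulls down 1 protein and reads where reverse transcription stops on the attached RNA. KIT-positive cells were sorted from testes of mice at postnatal day 8, all labelled Mtr4WT, and an antibody to MTR4 was used throughout. The 3 samples formed 1 group with no control precipitation, and the labels do not say whether they came from separate animals. Only the peak list recorded under replicate 3 was analysed here. Its name reads as merged, but whether it pools the 3 samples was not settled from the labels.

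MTR4 is the RNA helicase that feeds nuclear transcripts to the exosome for trimming or decay. Undifferentiated spermatogonia hold the stem cells of the male germ line. Sertoli cells secrete GDNF, which binds the co-receptor GFRA1 and signals through the kinase RET to keep these cells renewing; retinoic acid then moves their progeny to the KIT-positive differentiating state. The sort was therefore made on a receptor of the later state, while the 10 genes are known for the earlier one. A peak records a crosslinked RNA contact and not an expression level, so neither the amount of each transcript nor the kind of cell that gave a peak was measured.

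The 10 genes had peaks spread thinly, at 0 to 3 per gene. Gfra1 held 3 peaks, the most of the 10 (3.26% of all protein-coding genes held at least 3). Ret and Pax7 held 2 each (8.55% of protein-coding genes held at least 2), and Cdh1, Zbtb16, Etv5 and Sall4 held 1 each. Id4, Nanos2 and Lin28a held none. A peak was found in 7 of the 10 (70%, 95% Wilson interval 39.7 to 89.2, counting error only), against 25.5% of all 21887 protein-coding genes. The 10 genes were chosen with earlier results of these data known, so these shares are description and not a test. Gene length goes with this share: the median member was 52.1 kb long and the median protein-coding gene 17.2 kb. The 7 genes with a peak ran from 18.9 kb upwards, and the 3 without were 15.9 kb or shorter. The 10 gene bodies carried 15.4 peaks per Mb together, where protein-coding gene bodies as a whole carried 8.41.

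**Figure D1:**
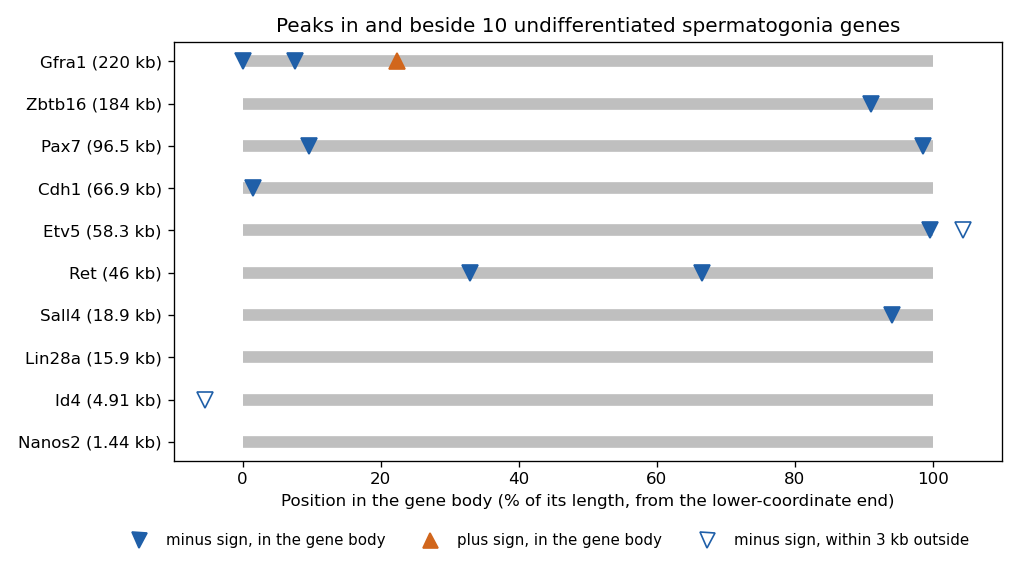
Position of each peak along the gene body, as a percent of its length from the end with the lower coordinate, for the 10 genes in order of length. Downward blue marks are peaks with the minus sign and the upward orange mark is the 1 peak with the plus sign, in Gfra1; open marks are the 2 peaks within 3 kb outside Id4 and Etv5.

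None of the 10 genes passed a test for more peaks than its length and surroundings predict. In 6 the count was above the expected number, but this says little beyond holding a peak. For Ret, Cdh1, Etv5 and Sall4 the expected number was 0.245 to 0.524, so any peak exceeds it. The share of all genes above their expected number is not given here. For each gene the expected number was its length times the higher of 2 densities, that of its chromosome and that within 500 kb on either side. An exact 1-sided Poisson test was then adjusted by the Benjamini-Hochberg method over 34614 protein-coding and long noncoding genes, with a threshold of 0.05. Of all genes tested, 93 passed (0.269%), and 0 of the 10 members did. At an unadjusted p under 0.05 the members again gave 0, against 3.42% of all genes. The members together held 11 peaks where 6.61 were expected, and their median ratio of observed to expected was 1.53. Summed over all protein-coding genes, 8836 peaks were held where 9303 were expected. The median over protein-coding genes was 0, since most of these held no peak.

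The receptor pair for GDNF came first. Gfra1 encodes the membrane-anchored co-receptor that binds the ligand, and its gene body lies on chromosome 19 from 58235581 to 58455946, on the minus strand. The 3 peaks were at chr19:58235781-58235800, chr19:58252241-58252260 and chr19:58284961-58284980. All 3 lay in the part of the gene away from its start, at 99.9%, 92.4% and 77.6% of the way from start to end. The outermost midpoint was 210 nt inside the annotated 3′ end, and the peaks were 16.5 kb and 32.7 kb apart. The first 171 kb of the gene held no peak. The ratio to expectation was 1.77 (exact Poisson interval 0.365 to 5.17, adjusted exact Poisson p = 1). Among the 490 other protein-coding genes within 20% of its length, 85 (17.3%) held 3 peaks or more, so a gene this long with this many peaks was not rare in the list. The innermost Gfra1 peak, the only one with the plus sign, also lay in Gm46650, a gene model of 16.6 kb nested in Gfra1, and cannot be assigned to either.

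Ret encodes the receptor tyrosine kinase that transmits the GDNF signal. Its gene body on chromosome 6, from 118151748 to 118197744, held peaks at chr6:118166901-118166920 and chr6:118182381-118182400. They were 15.5 kb apart and well inside the gene, 15.2 kb and 15.4 kb from its nearest ends. The ratio to expectation was 3.95 (exact Poisson interval 0.479 to 14.3, adjusted exact Poisson p = 1), and the unadjusted exact Poisson p of 0.092 was the lowest of the 10 genes. Against the density of chromosome 6 by itself the ratio was 7.62 (adjusted exact Poisson p = 0.77). Of 1902 other protein-coding genes of like length, 156 (8.20%) held at least 2 peaks.

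**Figure D2:**
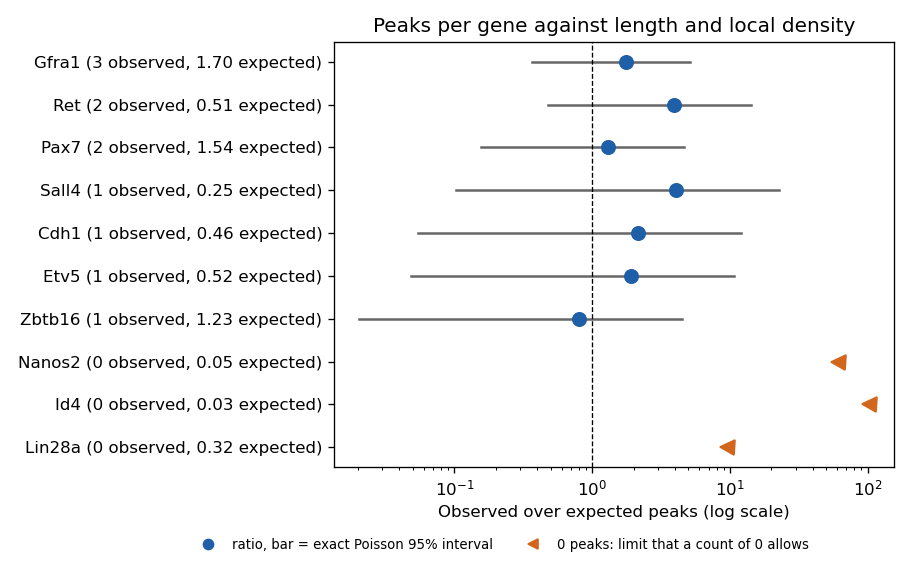
Ratio of observed to expected peaks for each gene on a log axis, with exact Poisson 95% intervals as bars. The bars of all 7 genes with a peak cross the dashed line at a ratio of 1. The orange marks of Lin28a, Nanos2 and Id4 are upper limits of 9.45, 61.3 and 101, taken as 3 peaks over the expected number. The upper ends of their exact Poisson 95% intervals, not drawn, are 11.6, 75.4 and 125. These short genes could not be shown to lack peaks.

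Etv5 and Id4, which encode transcriptional regulators, had peaks close to their starts. Etv5 is an ETS-family transcription factor induced by GDNF and needed for stem cell renewal, and Id4 is an inhibitor of basic helix-loop-helix factors that marks the cells with the most stem cell activity in mice. The promoter windows are shown because the peaks lie just beyond them. Each is a RefSeq window on GRCm38.p6 of 250 bases before to 50 after a listed start, written 5′ to 3′ along the gene, with the 50 bases from the start onwards in capitals. The Id4 window is the plus strand of chr13:48260866-48261165 and the Etv5 window the minus strand of chr16:22439521-22439820.
Id4: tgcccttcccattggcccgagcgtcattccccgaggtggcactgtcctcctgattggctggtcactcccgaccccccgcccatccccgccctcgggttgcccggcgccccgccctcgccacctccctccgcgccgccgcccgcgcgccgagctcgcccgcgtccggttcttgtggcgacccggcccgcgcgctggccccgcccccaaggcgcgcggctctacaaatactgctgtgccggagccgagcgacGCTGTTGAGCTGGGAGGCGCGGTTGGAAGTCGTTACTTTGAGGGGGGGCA
Etv5: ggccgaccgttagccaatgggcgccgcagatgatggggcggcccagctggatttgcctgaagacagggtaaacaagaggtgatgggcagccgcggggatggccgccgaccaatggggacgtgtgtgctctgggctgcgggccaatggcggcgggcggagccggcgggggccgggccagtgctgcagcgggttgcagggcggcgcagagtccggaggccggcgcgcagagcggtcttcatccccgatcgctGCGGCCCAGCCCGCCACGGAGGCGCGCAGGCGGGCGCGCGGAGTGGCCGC

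The Etv5 gene body, on chromosome 16 from 22381313 to 22439570, held 1 peak, at chr16:22439281-22439300. Its midpoint was 280 nt downstream of the gene start and 220 nt separated it from the promoter window. A further peak at chr16:22442081-22442100 lay outside the gene, 2.52 kb upstream of the start, so the 2 minus-sign peaks stood 2.8 kb apart on both sides of it. Counting the gene body alone, the ratio to expectation was 1.91 (exact Poisson interval 0.0483 to 10.6, adjusted exact Poisson p = 1). With 3 kb added at both ends Etv5 had 2 peaks and a ratio of 3.89 (adjusted exact Poisson p = 1).

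The Id4 gene body, on chromosome 13 from 48261116 to 48266028, held no peak, but a minus-sign peak at chr13:48260841-48260860 lay 266 nt upstream of its start. Only 5 nt separated it from the promoter window printed above. This was the peak nearest to the rule's border on the outside, as the Gfra1 peak 210 nt from the gene's end was on the inside. The same position is inside A330033J07Rik, a long noncoding gene of 218 kb on the minus strand that overlaps the Id4 start, and it was the only peak in that gene. With the gene body widened by 3 kb, Id4 had 1 peak and a ratio of 15.2 (adjusted exact Poisson p = 1). Both printed windows were rich in G and C, at 73.3% for Id4 and 74.0% for Etv5, against a median of 52.7% over 32851 promoter windows. Windows of other members had 63.7% for Pax7, 63.3% for Lin28a, 54% for Gfra1 and 53% for Nanos2, and Lin28a and Nanos2 held no peak. A link between base content and peaks was not tested. The GC-box letters GGGCGG, searched on both strands, occurred 5 times in the Id4 window and 3 times in the printed Etv5 window, and 35.7% of all windows held them at least once. The Pax7 and Lin28a windows held 1 match each, and those of Gfra1 and Nanos2 held 0. Etv5 has a second listed start, at 22438368, whose window, 662 nt from the same peak, had 60% G and C and 0 matches. These matches describe the letters and are no evidence of a bound site.

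Pax7, a paired-box transcription factor that marks a rare subset of spermatogonia in mice, carried 2 minus-sign peaks at opposite ends of its gene. The gene body lies on chromosome 4 from 139737059 to 139833530, on the minus strand. One peak, at chr4:139832061-139832080, was 1.46 kb inside the gene's outer start and 0.897 kb downstream of the start listed in the promoter table. The other, at chr4:139746341-139746360, lay at 90.4% of the gene's length from the start. The ratio was 1.30 (exact Poisson interval 0.157 to 4.68, adjusted exact Poisson p = 1) with 16 peaks in the flanking 500 kb on either side. Against the density of chromosome 4 by itself it was 2.93 (adjusted exact Poisson p = 1). Of 1257 other genes of like length, 22.0% held as many peaks.

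Zbtb16 encodes PLZF, a zinc finger repressor that restrains differentiation. Its gene, on chromosome 9 from 48651797 to 48836225, was the second longest of the 10 and held 1 peak, at chr9:48819721-48819740. This was the only gene with a peak whose ratio fell below 1, at 0.810 (exact Poisson interval 0.0205 to 4.51, adjusted exact Poisson p = 1). A peak occurred in 61.6% of the 630 other genes of like length. Sall4, another zinc finger transcription factor of germline stem and progenitor cells, lies on chromosome 2 from 168748332 to 168767201. Its 1 peak, at chr2:168766081-168766100, was 1.11 kb inside the end with the higher coordinate. Sall4 was the shortest gene with a peak, which gave it the highest ratio, 4.08, with a wide interval (exact Poisson interval 0.103 to 22.7, adjusted exact Poisson p = 1); 20.1% of 2448 genes of like length also held a peak.

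Cdh1 encodes E-cadherin, the adhesion molecule found on the surface of undifferentiated spermatogonia. On chromosome 8, from 106603350 to 106670247, it held 1 peak, at chr8:106604321-106604340, with the midpoint 980 nt inside the lower-coordinate end. The ratio was 2.15 (exact Poisson interval 0.0545 to 12.0, adjusted exact Poisson p = 1), and 41.2% of the 1520 genes of like length held a peak. The next peak on the chromosome was 72.6 kb away.

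The genes of the RNA-binding proteins Nanos2 and Lin28a held no peak. NANOS2 represses translation of differentiation transcripts and LIN28A blocks maturation of let-7 microRNAs. Nanos2 is on chromosome 7 from 18987524 to 18988962, and the peak nearest to its promoter window was 35.7 kb from it, although 34 peaks lay within 500 kb on either side. Lin28a is on chromosome 4 from 134003330 to 134019196, with 20 peaks in the same flanks and none within 50.4 kb of its promoter window. With 0.0489 peaks expected in Nanos2 and 0.317 in Lin28a, an absence of contacts was not detectable at this depth. A count of 0 allows up to 3 peaks, which is 61.3 times the expected number for Nanos2 and 9.45 times for Lin28a.

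The width and surroundings of the 11 peaks, which the choice of genes did not use, are given as description. All 11 were 20 nt wide, the narrowest class, which made up 95.7% of the list. None was near an annotated small RNA gene: the closest, Gm23908, was 54.9 kb from a Ret peak. The nearest other peak was between 2.8 kb and 150 kb away, so no member carried a cluster. For both distances the shares over the whole list are not given here, so neither is a trait particular to these peaks. In 3 of the 11 the midpoint was within 1 kb of a gene end (27.3%, Wilson interval 9.75 to 56.6), and among 7763 peaks lying in 1 protein-coding gene and no other gene the share was 23.7%.

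Distance from the start could be measured for the 6 peaks of Gfra1, Pax7 and Etv5, whose strand is given in the promoter table. Of these, only the Etv5 peak lay within 1 kb of the gene's outer start. Over 6138 peaks in protein-coding genes of known strand, 1228 lay within 1 kb downstream of the start and 271 (4.42%) within 1 kb of the 3′ end. The Gfra1 peak 210 nt from the 3′ end belonged to the smaller of these classes.

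**Figure D3:**
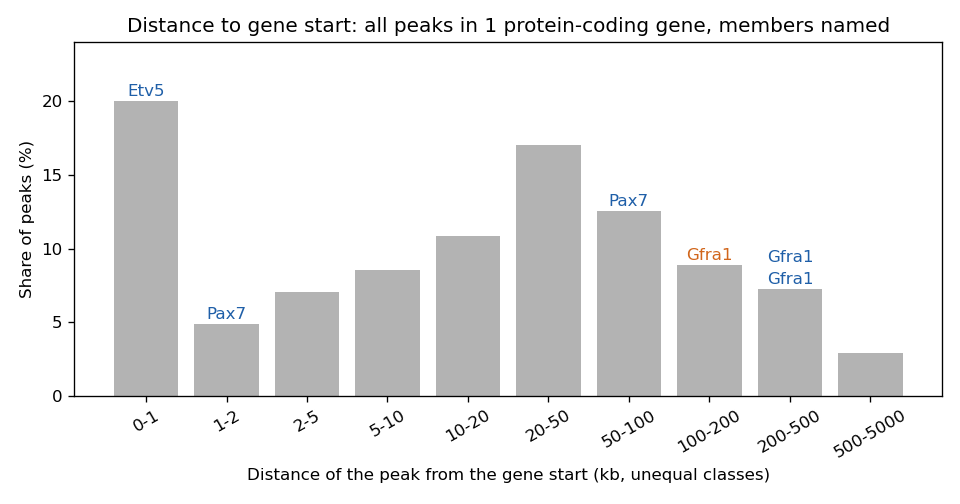
Share of peaks by distance from the gene start in kb, in classes of unequal width, for the 6138 peaks that lie in 1 protein-coding gene of known strand (grey bars). Names mark the classes of the 6 peaks of Etv5, Pax7 and Gfra1, blue for the minus and orange for the plus sign; the orange Gfra1 peak is not in the bars because it also lies in Gm46650.

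The sign of the peaks was mostly minus, in 10 of 11 (90.9%, Wilson interval 62.3 to 98.4), against 65.6% of peaks in 1 protein-coding gene. The sign did not follow the annotated strand over such genes: it matched the strand in 2908 of 6138 peaks (47.4%, Wilson interval 46.1 to 48.6), and minus-sign peaks made up 68.5% in plus-strand genes and 63.0% in minus-strand genes. In 52 genes of known strand that passed the test of excess peaks it was opposite in 165 of 200 peaks (82.5%, Wilson interval 76.6 to 87.1). In other genes it was opposite in 51.6% of 5938 peaks. Among peaks of 40 nt or more it was opposite in 93 of 162 (57.4%, Wilson interval 49.7 to 64.8). These intervals take peaks as independent. The interval for the 52 genes is too narrow, since these genes were called for holding many peaks each. At Gfra1, Pax7 and Etv5, all minus-strand genes, 5 of the 6 peaks had the gene's own sign, and the Gfra1 peak shared with Gm46650 had the opposite one. Which strand of RNA a member's peak came from was therefore not settled by the file.

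Other genes of the GDNF pathway carried peaks at about the expected number. Of 41 genes for ligands, co-receptors, adaptors and kinases of GDNF receptor signalling, 18 held a peak (43.9%, Wilson interval 29.9 to 59.0), with 26 peaks where 27.0 were expected, and 0 passed the adjusted test. At an unadjusted exact Poisson p under 0.05, which 3.42% of all genes reached, there were 2 of the 41, Pik3r1 and Dok1. Pik3r1, a regulatory subunit of PI3 kinase, held 3 peaks at a ratio of 5.70 (exact Poisson interval 1.18 to 16.7). Dok1, an adaptor gene of 2.56 kb that was named after its value was seen, held 1 at 39.0 (exact Poisson interval 0.987 to 217). Dok5, an adaptor that binds RET, held 3 at 3.11 and did not reach an unadjusted p under 0.05. The kinase genes Src, Map2k1 and Fyn held 2 each, as did Cbl, a ubiquitin ligase that turns over receptor kinases, at ratios of 4.17, 1.97, 1.71 and 1.15. The ligand gene Gdnf, singled out after its value was seen, held 1 peak at a ratio of 5.19 (exact Poisson interval 0.131 to 28.9).

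Genes listed as GDNF-responsive and self-renewal transcription factors held a peak in 9 of 24 (37.5%, Wilson interval 21.2 to 57.3). They had 10 peaks where 7.50 were expected, and Stat3, a factor activated by cytokine receptors, was the only gene with 2, at a ratio of 3.16. Surface and RNA-binding markers of undifferentiated cells held one in 11 of 22 (50.0%, Wilson interval 30.7 to 69.3), with 17 peaks where 10.4 were expected. Shisa6 held 3 peaks at a ratio of 1.15, and the tetraspanin gene Cd9 held 2 at 5.80, as did Pum2, which encodes an RNA-binding repressor of translation, at 2.32. In both lists 0 genes passed the adjusted exact Poisson test, and 0 and 1 (Cd9) had an unadjusted p under 0.05.

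Genes of the later, differentiating state held a peak in 5 of 12 (41.7%, Wilson interval 19.3 to 68.0), with 9 peaks where 3.76 were expected and 0 past the adjusted exact Poisson test. Kdm5b, a histone demethylase, held 3 peaks at a ratio of 4.58 and was the 1 gene with an unadjusted exact Poisson p under 0.05. Kit, the receptor used for the sort, held 2 at 2.45 (exact Poisson interval 0.296 to 8.84), and Dmrt1, a regulator of the switch to meiosis, 2 at 2.63. The intervals of Kit and of the GDNF receptor genes overlapped, and a difference between the earlier and later gene sets was not tested.

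Markers of other testis cells carried peaks as well. Beside the 25.5% of all protein-coding genes with a peak, one was found in 4 of 6 Sertoli markers, with 5 peaks where 1.29 were expected. Among Leydig and interstitial markers 4 of 6 held a peak, with 5 peaks where 0.852 were expected and a median ratio of 9.34. As a ratio of observed to expected peaks, both lists stood higher than the 10 members (11 peaks against 6.61). This ratio does not put short and long genes on a par. The expected number scales with length, while 1228 of 6138 peaks lay within 1 kb downstream of a gene start. The median gene was 20.3 kb long among Sertoli markers and 11.2 kb among Leydig and interstitial markers, against 52.1 kb for the members. Ratios by length class are not given for these 2 lists. Each list rested on 5 peaks, and the differences were not tested. Among mast cell, macrophage and endothelial markers 2 of 5 held a peak, with 2 peaks where 3.62 were expected. Of 5 marker genes of differentiating spermatogonia, 3 had a peak, with 6 peaks where 1.92 were expected. An unadjusted exact Poisson p under 0.05 was reached by Clu with 2 peaks among Sertoli markers, by Nr2f2 with 2 and Insl3 with 1 among Leydig and interstitial markers, by Kdm5b among differentiating markers and by none among mast cell, macrophage and endothelial markers. None of these genes passed the adjusted test; the lowest value was that of Clu (adjusted exact Poisson p = 0.50). Sertoli markers at 0 peaks were Sox9 and Amh, and Leydig markers at 0 were Cyp11a1 and Star, and Cpa3, Adgre1 and Pecam1 were at 0 among mast cell, macrophage and endothelial markers. The part of other cells in the 11 peaks was not tested.

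**Figure D4:**
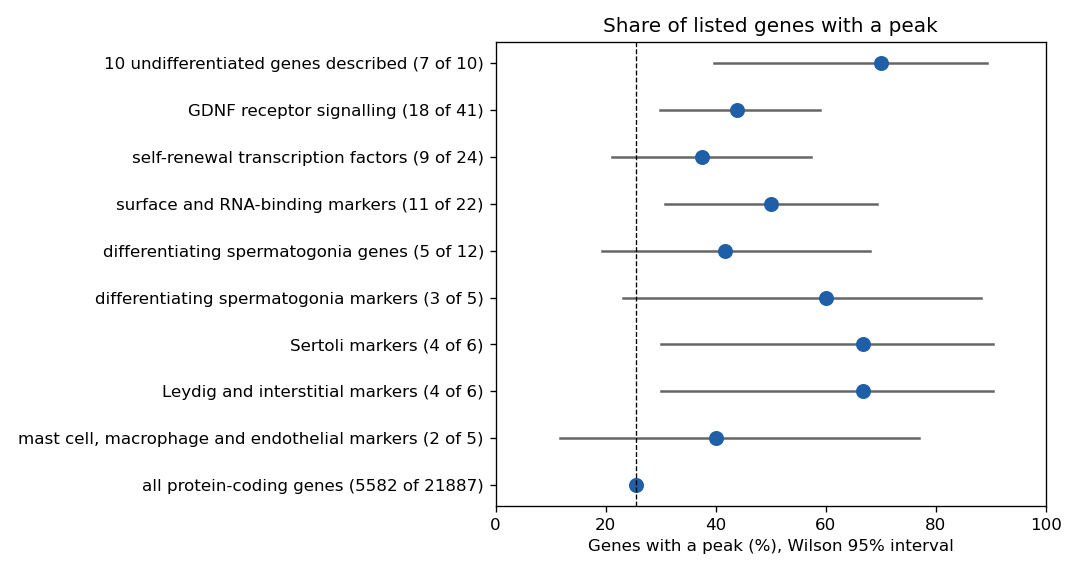
Percent of genes with at least 1 peak in each gene list, with 95% Wilson intervals as bars and the number of genes in brackets. The dashed line is the 25.5% of all protein-coding genes. The lists differ in gene length, which was not held fixed. They also overlap: Gdnf, Csf1r, Ddx4 and all differentiating spermatogonia markers are in more than 1 list.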

How the data were processed

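LACE-seq of MTR4 was made on 3 samples of sorted KIT-positive testis cells. Per the submitters' processing notes, cutadapt 1.15 and Bowtie 1.0.0 were used with the mouse build mm10. The name of the deposited peak list holds mer, dedup and Piranha, which reads as merged, deduplicated and called with Piranha. The sources used here say no more on the peak caller, and its settings are not given. The deposited list has 4 columns, chromosome, start, end and sign, with coordinates in steps of 20 nt and no score, count or p-value, so depth is unknown and peaks could not be ranked. Coordinates are 1-based.

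Peak midpoints were joined to RefSeq gene bodies of GRCm38.p6, the assembly of mm10, on either strand, since that table has no strand or exons. Strand came from the RefSeq promoter table, which lists 6 of the 10 members; exons and introns were not told apart. Peak sequences were not used here. The exact Poisson test ran in Python 3.11.15 with scipy 1.17.1 over all genes. It was also run on simulated peaks placed evenly at random along each chromosome, in some runs with peaks added to shorter genes. Peaks of the real list gather near gene starts, which the simulation leaves out, so it does not check the test under that spread. Like length means within 20%. Members and lists were chosen with earlier results of these data known. Genes beyond the 10 members were named when they held at least 2 peaks, up to 6 per list by number of peaks, together with Kit and any gene overlapping a member's peak. Dok1, Gdnf, Insl3 and the markers with 0 peaks fall outside this rule and were named after their values were seen. All 99 entries of the 4 pathway lists matched the gene table. Of the genes this rule names, 1 is not reported here; it stays in the counts.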

Additional observations from a re-analysis of the deposited data

How the results depend on the processing

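Under 10 alternatives, 1 of them (the density of protein-coding genes of like length in 20 classes) chosen after seeing the data, 0 of the 10 members passed the test of excess peaks; the lowest adjusted exact Poisson p of any member was 0.77. Of 100 recomputed ratios, 87 kept their side of 1, but part of this tally was fixed in advance. Testing protein-coding genes alone changes only the adjustment, so no ratio could move. Against the chromosome density by itself no ratio could fall. Id4, Nanos2 and Lin28a could leave a ratio of 0 only where a setting gave them a peak. No member kept a peak when only peaks of 40 nt or more were used, giving 0 peaks in 0 members and a ratio of 0 for the 6 genes that had stood above 1. With plus-sign peaks alone, 1 peak in 1 member was left and Ret, Pax7, Cdh1, Etv5 and Sall4 went to a ratio of 0. Zbtb16 rose to 1.34 with minus-sign peaks alone, and Id4 to 15.2 with gene bodies widened by 3 kb. The number of all genes that passed moved from 93 to 53 with peaks of 1 sign under 100 nt apart merged, 20 with peaks of 40 nt or more, 35 with minus-sign peaks, 183 with the chromosome density and 47 with the density by length class. No paired analysis was possible because there is 1 group and 1 list. With no score, depth or second list, each peak has no replicate check.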
